A study of Mus musculus with 6 samples.

Results

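Sphingosine-1-phosphate (S1P) is a signalling lipid that supports the barrier of blood vessel walls, and 8 genes of its receptors and metabolism were followed in brain endothelial cells exposed to dolutegravir. The genes were chosen by function, with earlier results of these data known. They were mapped from Ensembl identifiers, 8 of the 43271 genes in the deposited count table. They are the receptors S1pr1 and S1pr3, the exporter Spns2, the kinases Sphk1 and Sphk2, the lyase Sgpl1 and the phosphatases Plpp1 and Plpp3. Cells were primary brain microvascular endothelial cultures from wild-type C57BL/6 mice, used at passages 2 to 6 in medium with 5% fetal serum and vascular growth factors. Confluent monolayers were treated for 24 h with dolutegravir (DTG), an antiretroviral drug that blocks HIV integrase, at a concentration of 5000 ng/ml, or with dimethyl sulfoxide (DMSO), its vehicle, also for 24 h. Each group has 3 libraries. The series title ties the drug to a disturbed blood-brain barrier and to stress of the endoplasmic reticulum (ER).

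As background, sphingosine released from ceramide is phosphorylated by a sphingosine kinase to give S1P. In endothelial cells SPNS2 carries S1P out, where it binds G protein-coupled receptors. S1PR1 couples to Gi and, in endothelium, favours Rac activity, cortical actin and stable cell junctions. The signal is ended by lipid phosphate phosphatases such as PLPP1 and PLPP3, which remove the phosphate at the cell surface, and by the lyase SGPL1, which cleaves S1P irreversibly inside the cell.

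Library totals ranged from 51344169 to 56316335 counts in DTG and from 41162353 to 55998253 counts in DMSO. Library names carry an undefined P4 or P5 tag: DTG replicate 1 is P5 and DTG replicates 2 and 3 are P4, whereas DMSO replicate 1 is P4 and DMSO replicates 2 and 3 are P5. DTG replicate 1 lay nearer to the DMSO libraries than the other DTG libraries on the first principal component (-39.7 against -55.0 and -53.6, with DMSO at 49.0 to 50.1). Values within each tag are therefore given for the 7 tested S1P genes and for some of the other genes. The library name of DTG replicate 1 reads DIG where those of DTG replicates 2 and 3 read DTG, while its title and treatment label give DTG. The calls of all 6 called S1P genes were kept without it. Replicates 1 and 2 of each group also share a second number in their library names and may not be independent, and the labels do not state separate cultures, so a p-value reflects the spread among these libraries and no more. Levels are given as CPM, a gene's counts per 1000000 of the library total after TMM scaling. Markers of the labelled cell type were present, since 10 of 10 endothelial markers passed the count filter, with a summed level of 6470 to 6780 CPM in DTG and 8830 to 9290 CPM in DMSO. Of 8 pericyte and smooth muscle markers the summed level was 0.780 to 1.47 CPM in DTG and 0.590 to 0.691 CPM in DMSO, with Rgs5, Kcnj8 and Cnn1 at 0 counts in all libraries. Pdgfrb of that list, with 109 counts in DTG and 30 in DMSO, rose by 1.86 ± 0.31 log2 (adjusted p = 0.000594). Myh11 did not pass (adjusted p = 0.0925). Astrocyte markers summed to 0.137 to 0.223 CPM in DTG and 0.184 to 0.303 CPM in DMSO, with Aqp4 at 0. Fibroblast markers summed to 7.74 to 8.68 CPM in DTG and 6.52 to 7.44 CPM in DMSO. Col1a1 of that list, with 128 counts in DTG and 68 in DMSO, rose by 0.93 ± 0.29 log2 (adjusted p = 0.0179). Pdgfra did not pass (adjusted p = 0.362). Of platelet genes, Pf4 was at 28.6 ± 0.69 CPM in DTG and 13.9 ± 2.95 CPM in DMSO and rose by 1.04 ± 0.14 log2 (adjusted p = 0.000115), whereas Itga2b was at 3.98 ± 0.41 CPM in DTG and 6.18 ± 0.82 CPM in DMSO and fell by 0.64 ± 0.14 log2 (adjusted p = 0.00342). Pf4 was at 0.75 log2 in P4 alone and 1.21 in P5 alone, and Itga2b at -0.76 and -0.49. Ppbp did not pass (adjusted p = 0.28), and the red cell gene Hbb-bs was at 0. The part of these markers in the results was not tested. Drug response was visible in Hspa5, the ER chaperone BiP, at 13380 ± 2353 CPM in DTG and 720.2 ± 40.4 CPM in DMSO (SD, n = 3 each), with 10660 CPM in DTG replicate 1. The log2 ratio of Hspa5 was 4.45 in P4 alone and 3.84 in P5 alone.

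With DTG, the main endothelial S1P receptor gene, the exporter gene, the expressed sphingosine kinase gene and the lyase gene were all higher. The phosphatase genes Plpp1 and Plpp3 were lower with DTG. The largest changes were in Sphk2 (2.75-fold) and Spns2 (2.56-fold), followed by S1pr1 (1.52-fold) and Sgpl1 (1.31-fold). The order of Sphk2 and Spns2 was reversed within the P5 libraries (0.90 and 1.07 log2) and with the tag as a term (1.24 and 1.25 log2). Plpp3 was 1.37-fold lower and Plpp1 1.22-fold lower. The Plpp1 call was lost when certain single libraries were left out. Of the 8 genes, 7 passed the filter on low counts, 4 were called higher, 2 lower and 1 (Sphk1) neither at an adjusted p under 0.05, while S1pr3 had no counts. Over all 14101 genes tested 56.7% were called, 27.4% higher and 29.3% lower, so a call in either direction was common in these libraries. RNA from whole cultures cannot tell fewer cells of a type from less RNA per cell.

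**Figure D1:**
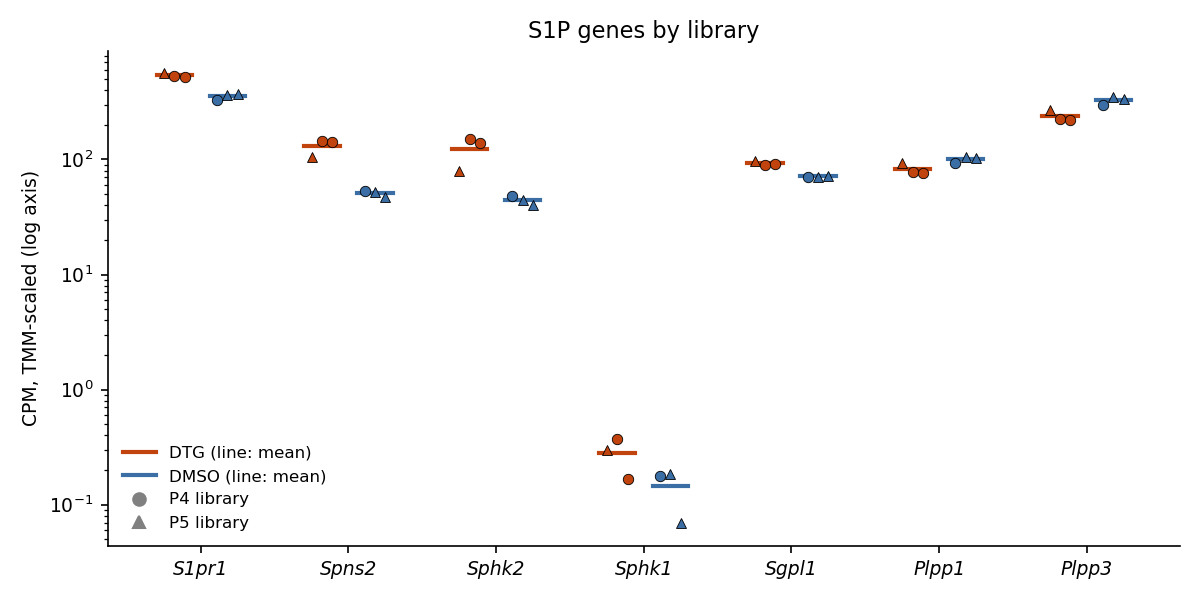
CPM (TMM-scaled, log axis) of 7 S1P genes in each library, with DTG at the left and DMSO at the right of each gene, circles for P4 and triangles for P5 libraries, and a line at the group mean. The groups do not overlap for any gene shown except Sphk1, as was true for 64.2% of all genes tested. For Plpp1 they are barely apart, with DTG replicate 1 at 92.94 CPM and DMSO replicate 1 at 92.97 CPM. The DTG triangle lies below the DTG circles for Spns2 and Sphk2. S1pr3, at 0 in all libraries, is not drawn.

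Among the receptors, S1pr1 had 561, 527 and 522 CPM in DTG replicates 1, 2 and 3, against 326.5, 363 and 372 CPM in DMSO replicates 1, 2 and 3. All DTG libraries lay above all DMSO libraries, as was true in one direction or the other for 64.2% of all genes tested. The log2 fold change was 0.60 ± 0.08 (SE, adjusted p = 0.000123). Taken alone, the P4 libraries gave 0.68 and the P5 libraries 0.61. S1pr1 is an abundant transcript of these cells, its mean CPM in DMSO being at or above that of 97.2% of the genes tested. Of the 10 endothelial markers, 7 were lower and 0 higher in DTG (70% and 0%, where 29.3% and 27.4% of all genes tested were). Among the 7, Kdr, Pecam1 and Tie1 fell by 1.22, 0.81 and 0.79 log2. Cdh5, Flt1 and Esam did not pass, at 0.17, 0.07 and 0.05 log2.

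S1pr3, another S1P receptor gene, had 0 counts in each of the 6 libraries. A count of 0 allows up to 3 counts, or 0.0557 to 0.0622 CPM in a DTG library and 0.0506 to 0.0691 CPM in a DMSO library, so a change was not detectable in these counts. The counting tool and annotation are not given, and the limit holds for the counts as deposited, not for expression of the gene. Intervals and limits of this kind cover counting error only. S1pr5 was likewise at 0 in every library. S1pr4, best known from lymphocytes, had 13 counts over the DTG libraries and 38 over the DMSO libraries, which gives a DTG to DMSO ratio of 0.343 with an exact 95% interval of 0.168 to 0.659. Its fitted change of -1.52 ± 0.48 log2 passed (adjusted p = 0.0206), but was lost with DESeq2 (adjusted p = 0.0889), without DTG replicate 3 (0.0795) and without DMSO replicate 2 or 3 (0.0718 and 0.0679). The log2 ratio was -1.73 in P4 alone and -1.07 in P5 alone. S1pr2, a further S1P receptor gene, was at 6.83 ± 0.95 CPM in DTG and 8.38 ± 0.63 CPM in DMSO and did not pass (-0.29 ± 0.13 log2, adjusted p = 0.0702), with -0.53 in P4 alone and -0.02 in P5 alone. It did pass as lower with library-size scaling (-0.46, adjusted p = 0.0121), with upper-quartile factors (-0.39, 0.0267) and without DTG replicate 1 (-0.38, 0.0159), and was at -0.19 log2 without DTG replicate 2. Per exon length, S1pr1 made up 99.5% ± 0.05 of the summed S1P receptor level in DTG and 99.0% ± 0.12 in DMSO, and S1pr2 0.482% ± 0.048 in DTG and 0.902% ± 0.131 in DMSO (SD, n = 3 each).

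Spns2, the S1P exporter gene, had 104, 144 and 142 CPM in DTG replicates 1, 2 and 3, against 53.2, 51.8 and 47.4 CPM in DMSO replicates 1, 2 and 3. The groups were far apart, with DTG replicate 1, the P5 library, lowest of its group. The log2 fold change was 1.35 ± 0.12 (SE, adjusted p = 1.02e-05), and it was 1.43 in P4 alone and 1.07 in P5 alone. The exporter gene Mfsd2b, which serves blood cells, was at 0.586 ± 0.060 CPM in DTG and 1.06 ± 0.07 CPM in DMSO and fell by 0.85 ± 0.21 log2 (adjusted p = 0.00548).

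Sphk2, whose kinase acts largely at internal membranes and in the nucleus, had 79.4, 149 and 138 CPM in DTG replicates 1, 2 and 3, against 48.2, 44.7 and 40.3 CPM in DMSO replicates 1, 2 and 3. Every DTG library was above every DMSO library, but DTG replicate 1 lay nearer to the DMSO libraries than to the other DTG libraries. The log2 fold change was 1.46 ± 0.22 (SE, adjusted p = 0.00106). It was 1.58 in P4 alone, 0.90 in P5 alone and 1.73 without DTG replicate 1. The difference between the tags in the treatment effect was -0.68 ± 0.15 log2 for Sphk2 and -0.36 ± 0.14 log2 for Spns2 (P5 minus P4). Neither passed in the edgeR quasi-likelihood test of the interaction (adjusted p = 0.382 and 0.485). Of the 14101 genes tested 0 passed, and both genes were among the 9.58% under 0.05 before adjustment. P5 holds 1 DTG library and P4 holds 1 DMSO library, so a difference between the tags is not excluded for either gene.

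Sphk1, the kinase gene that many growth factors and cytokines induce, was near the detection limit, with 16, 19 and 8 counts in DTG replicates 1, 2 and 3 and 9, 11 and 3 counts in DMSO replicates 1, 2 and 3. The groups overlapped. Its fitted change of 0.91 ± 0.43 log2 missed the threshold (adjusted p = 0.0987). Without DTG replicate 3 it passed, with an adjusted p of 0.0493 (0.0493 to 0.29 over all alternatives). The log2 ratio was 0.60 in P4 alone and 1.22 in P5 alone. Per exon length, Sphk2 made up 99.8% ± 0.11 of the summed kinase level in DTG and 99.7% ± 0.11 in DMSO (SD, n = 3 each).

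The promoter of Sphk2, with the largest fitted change over all libraries, and that of Plpp3, with the largest fitted fall, are shown because the title names ER stress, whose transcription factors bind known short motifs. Each is the RefSeq window from 250 bases before to 50 after the transcript start (build GRCm38.p6, another build than the GRCm39 of the counts), which the table holds for 6 of the 8 genes. Of the Sphk2 windows it is the one at the outermost start of the gene. For Sphk2 (chr7:45717953-45718252, minus strand) capitals mark TGACGCAAT and TGACGTCA, and for Plpp3 (chr4:105157097-105157396, plus strand) they mark GGGTGG.
Sphk2: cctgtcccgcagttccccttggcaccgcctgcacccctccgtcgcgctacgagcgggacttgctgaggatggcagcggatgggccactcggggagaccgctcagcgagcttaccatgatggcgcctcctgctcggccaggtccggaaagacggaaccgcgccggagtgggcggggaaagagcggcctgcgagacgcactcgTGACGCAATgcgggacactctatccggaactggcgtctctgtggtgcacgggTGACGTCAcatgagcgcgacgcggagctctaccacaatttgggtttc
Plpp3: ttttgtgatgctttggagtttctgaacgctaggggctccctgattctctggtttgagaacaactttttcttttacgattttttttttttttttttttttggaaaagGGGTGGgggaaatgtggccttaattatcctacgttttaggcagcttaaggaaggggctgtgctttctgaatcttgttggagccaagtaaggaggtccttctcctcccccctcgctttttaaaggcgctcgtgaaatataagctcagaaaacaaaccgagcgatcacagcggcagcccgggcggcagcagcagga

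Of the motifs searched on both strands, the cAMP response element TGACGTCA, which ATF and CREB factors bind, was found in the Sphk2 window from 4 to 11 bases after the start and in no other window of these genes, while 1.79% of 32851 RefSeq windows of the same length hold it. TGACGCAAT, from 49 to 41 bases before the Sphk2 start, matches TGANGCAAT, a form of the CHOP-ATF4 composite motif with one letter open, chosen after the sequence was seen and held by 0.694% of windows. The composite TGATGCAAT (0.192% of windows) and the ER stress element (0.119%) had no match in the 11 windows of these genes. The same was true of the unfolded protein response element TGACGTGG (0.676%). S1pr1 and Plpp1 have no window, so their promoters were not searched. CCACCC, a box bound by KLF factors, is marked in Plpp3 as its reverse complement GGGTGG and is held by 31.5% of windows. The box was also found in the Sphk2 window that is not shown, in windows of Sphk1 and in that of S1pr3. A match is a description of letters, and binding was not measured. The Spns2 window lies 14877 bases from the outermost start of that gene in GENCODE M21, so it was not shown. The region at that outermost start was not searched.

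Sgpl1, the S1P lyase gene, had 97.7, 90.2 and 92.1 CPM in DTG replicates 1, 2 and 3, against 70.1, 71.0 and 72.3 CPM in DMSO replicates 1, 2 and 3. The groups were separate and each was tight. The log2 fold change was 0.39 ± 0.07 (SE, adjusted p = 0.000896). The P4 libraries alone gave 0.38 and the P5 libraries 0.45, and library-size scaling gave 0.22 (adjusted p = 0.0226). Aldh3a2, whose enzyme oxidises the aldehyde that the lyase releases, was at 61.2 ± 9.01 CPM in DTG and 53.3 ± 2.75 CPM in DMSO and did not pass (0.20 ± 0.11 log2, adjusted p = 0.14). Without DTG replicate 1 it passed as higher (0.35 log2, adjusted p = 0.00326), and it was at 0.40 in P4 alone and -0.11 in P5 alone.

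Plpp3, the phosphatase gene that in mouse vessels limits lysophospholipid signalling, had 268, 222.5 and 222 CPM in DTG replicates 1, 2 and 3, against 299, 345.5 and 332 CPM in DMSO replicates 1, 2 and 3. All DTG libraries were below all DMSO libraries, and the log2 fold change was -0.46 ± 0.10 (SE, adjusted p = 0.00231). It was -0.43 in P4 alone and -0.34 in P5 alone. Plpp1 had 92.9, 78.1 and 76.3 CPM in DTG replicates 1, 2 and 3, against 93.0, 106 and 103 CPM in DMSO replicates 1, 2 and 3. DTG replicate 1 and DMSO replicate 1 were almost level, and the groups only just failed to overlap. The change of -0.29 ± 0.09 log2 passed (adjusted p = 0.0236), but not without DTG replicate 2 or 3 (adjusted p = 0.125 and 0.153) or without DMSO replicate 2 or 3 (0.0881 and 0.0627). It was -0.27 in P4 alone, -0.17 in P5 alone and -0.46 with library-size scaling. Another member of the family, Plpp2, was at 114 ± 10.5 CPM in DTG and 133.5 ± 8.41 CPM in DMSO and fell by 0.23 ± 0.09 log2 (adjusted p = 0.043), a call that 9 of 15 alternatives did not give, including those without DTG replicate 2 or 3 and without DMSO replicate 1 or 2 (adjusted p = 0.217, 0.224, 0.0852 and 0.154). The S1P-specific phosphatase gene Sgpp1 was at 7.22 ± 0.49 CPM in DTG and 8.13 ± 0.26 CPM in DMSO without passing (adjusted p = 0.188, but 0.0175 and -0.34 log2 with library-size scaling), and Sgpp2 had 1 count in DTG and 0 in DMSO.

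**Figure D2:**
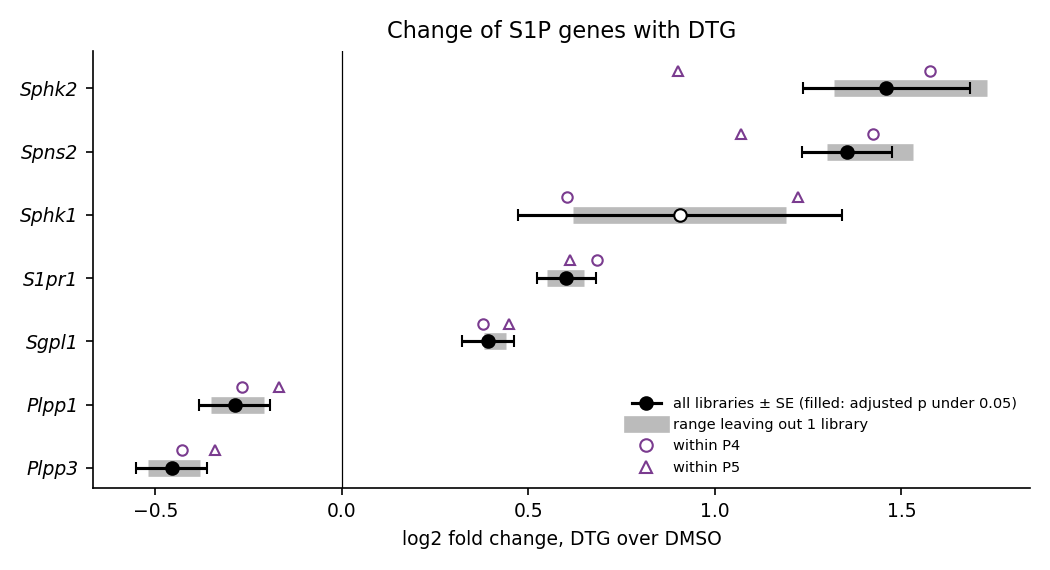
Log2 fold change (DTG over DMSO) of 7 S1P genes with its SE, filled where the adjusted p was under 0.05, with the range left when 1 library is omitted (grey bar) and the values within the P4 (circle) and P5 (triangle) libraries. Sphk2 and Spns2 have the only fitted changes above 1, Plpp1 and Plpp3 lie below 0, and the P5 value is lower than the P4 value for Sphk2 (0.90 and 1.58) and Spns2 (1.07 and 1.43).

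Levels between genes were compared per kb of exon length. In DTG the order was S1pr1 at 176 ± 7.02 CPM per kb, Plpp3 at 75.1 ± 8.35, Plpp1 at 47.1 ± 5.21, Spns2 at 31.8 ± 5.51, Sphk2 at 29.4 ± 9.03, Sgpl1 at 15.2 ± 0.63 and Sphk1 at 0.0583 ± 0.0219 (SD, n = 3). In DMSO it was S1pr1 at 116 ± 7.86 CPM per kb, Plpp3 at 103 ± 7.53, Plpp1 at 57.5 ± 3.89, Spns2 at 12.4 ± 0.74, Sgpl1 at 11.6 ± 0.18, Sphk2 at 10.7 ± 0.95 and Sphk1 at 0.0301 ± 0.0136 (SD, n = 3). In DTG the means of Spns2 and Sphk2 differed by less than their SDs together. In DMSO this was so of S1pr1 and Plpp3, of Spns2 and Sgpl1, and of Sgpl1 and Sphk2, although S1pr1 was above Plpp3 within every DMSO library.

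These levels give ratios within each library that do not depend on scaling between libraries. The ratio of S1pr1 to Plpp3 per kb was 2.17, 2.45 and 2.44 in DTG replicates 1, 2 and 3, against 1.13, 1.09 and 1.16 in DMSO replicates 1, 2 and 3. The ratio of the exporter gene Spns2 to the lyase gene Sgpl1 was 1.60, 2.40 and 2.31 in DTG replicates 1, 2 and 3, against 1.14, 1.10 and 0.987 in DMSO replicates 1, 2 and 3. Both pairs were chosen after their values were seen. The ratio of Plpp1 to Plpp3 was 0.627 ± 0.006 in DTG and 0.558 ± 0.004 in DMSO (SD, n = 3 each), so Plpp3 fell more than Plpp1 in these libraries. The groups did not overlap in any of these ratios, which were not tested. In a further pair, Sphk1 to Sphk2, the groups overlapped, at 0.00216 ± 0.00111 in DTG and 0.00277 ± 0.00113 in DMSO.

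**Figure D3:**
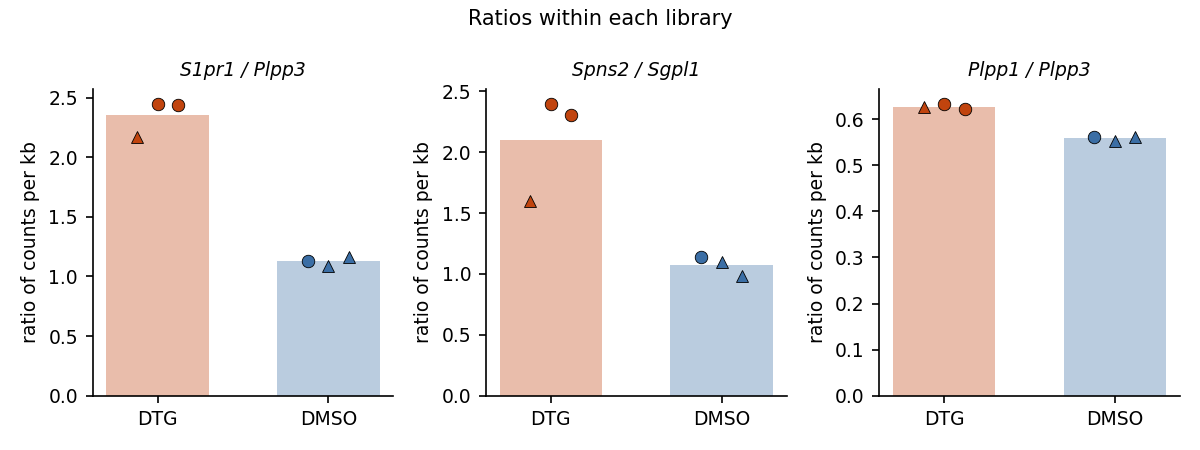
Ratios of counts per kb of exon length within each library for 3 pairs of S1P genes, with bars at the group mean (axis from 0), circles for P4 and triangles for P5 libraries, DTG at the left. The DTG libraries sit above the DMSO libraries in each panel, at 2.17 to 2.45 against 1.09 to 1.16 for S1pr1 to Plpp3. The pairs S1pr1 to Plpp3 and Spns2 to Sgpl1 were chosen after their values were seen. Sphk1 to Sphk2, where the groups overlapped, is not drawn.

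Some exons of these genes overlap genes on the opposite strand in GENCODE M21, and the strand setting of the counting is not given. Sphk2 shares 539 of its 4159 exon bases with Dbp and 373 with Rpl18. Dbp was at 41.5 ± 2.95 CPM in DTG and 82.3 ± 7.56 CPM in DMSO, and Rpl18 at 555 ± 23.9 CPM in DTG and 376 ± 54.1 CPM in DMSO. Spns2 shares 131 of 4083 bases with Mybbp1a, at 283 ± 18.3 CPM in DTG and 145 ± 3.47 CPM in DMSO. Plpp1 shares 452 of 1750 bases with Mtrex, at 58.3 ± 0.71 CPM in DTG and 50.1 ± 5.00 CPM in DMSO (SD, n = 3 each). The part of these overlaps in the results was not tested. S1pr1 and Plpp3 overlap no annotated gene.

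The genes whose centred log2 CPM profile over the 6 libraries was closest to that of S1pr1, among 9001 genes with a mean of at least 10 CPM and a name other than that of a predicted gene or pseudogene, were Arntl, a core clock transcription factor gene, Tmem230 and BC048403. Their root mean square differences from S1pr1 were 0.026, 0.0304 and 0.0308 log2. By the same measure, looked up after the values were seen, Sphk2 was closest to Sesn2, which encodes the stress-induced sestrin 2, at 0.0336 log2, followed by the neutral amino acid transporter gene Slc1a4 and the alanine aminotransferase gene Gpt2 at 0.0732 and 0.084. Spns2 was closest to Stambpl1, to the small MAF factor gene Mafk and to the alanyl-tRNA synthetase gene Aars, at 0.0297, 0.0317 and 0.0349 log2. The profiles rest on the same 6 libraries as the comparison and carry no test.

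Upstream of S1P, genes that make and consume ceramide changed in both directions. De novo ceramide synthesis had 1 gene higher and 3 lower of 11 tested (9.09% and 27.3%, where 27.4% and 29.3% of all genes tested were). Its median was 0.08 log2, against -0.02 over all genes tested. The gene that rose was Ormdl2, which encodes a subunit that restrains serine palmitoyltransferase, at 215 ± 19.2 CPM in DTG and 28.6 ± 2.97 CPM in DMSO (2.91 ± 0.10 log2, adjusted p = 3.98e-08), while Ormdl1 and Ormdl3 differed by 0.27 and 0.06 log2 without passing. The ceramide synthase genes Cers4 and Cers5 fell by 1.20 ± 0.08 and 0.22 ± 0.07 log2 (adjusted p = 2.28e-06 and 0.0213), and Sptssa, a small subunit of serine palmitoyltransferase, by 0.41 ± 0.10 (adjusted p = 0.00641). For Cers5 the call was absent from 6 of 15 alternatives, including those without DTG replicate 2 or 3 and without DMSO replicate 2 (adjusted p = 0.124, 0.163 and 0.0783). Genes too low to test were Sptssb with 0 counts in DTG and 8 in DMSO, Cers1 with 3 and 9, Cers3 with 14 and 18, Cers6 with 2 and 3, Degs2 with 0 and 2, and Sptlc3 with 0 in both.

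Of the ceramidase genes, whose products release sphingosine, 1 was higher and 1 lower of 4 tested, with a median of 0.07 log2. That is 25% each, where 27.4% of all genes tested were higher and 29.3% lower. Asah2, the neutral ceramidase gene, fell to 111.5 ± 0.98 CPM in DTG, against 191.5 ± 17.7 CPM in DMSO (-0.78 ± 0.08 log2, adjusted p = 2.92e-05). Acer2, the Golgi alkaline ceramidase gene, was at 185 ± 3.63 CPM in DTG and 154.5 ± 6.43 CPM in DMSO (0.26 ± 0.07 log2, adjusted p = 0.0091), a rise not called with library-size or upper-quartile scaling. The acid ceramidase gene Asah1 and the alkaline ceramidase gene Acer3 differed by 0.01 and 0.12 log2 without passing, and Acer1 had 0 counts. Acer3 passed as higher without DMSO replicate 3 (0.23 log2, adjusted p = 0.0268). Sphingomyelin and glycosphingolipid genes were called lower in 9 and higher in 1 of 17 tested, with a median of -0.24 log2. These are 52.9% and 5.88%, where 29.3% and 27.4% of all genes tested were lower and higher. Gltp, a glycolipid transfer protein gene, fell by 0.66 ± 0.07 log2, the sphingomyelinase family genes Smpd3 and Smpdl3b by 1.16 ± 0.17 and 0.93 ± 0.13 log2, and Cptp, a ceramide-1-phosphate transfer protein gene, rose by 0.77 ± 0.10 log2 (adjusted p = 3.92e-05, 0.000287, 0.000234 and 0.000127). Cptp was at 0.99 in P4 alone and 0.53 in P5 alone. Smpdl3a had 0 counts in DTG and 2 in DMSO, and Ugt8a 0 in both.

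**Figure D4:**
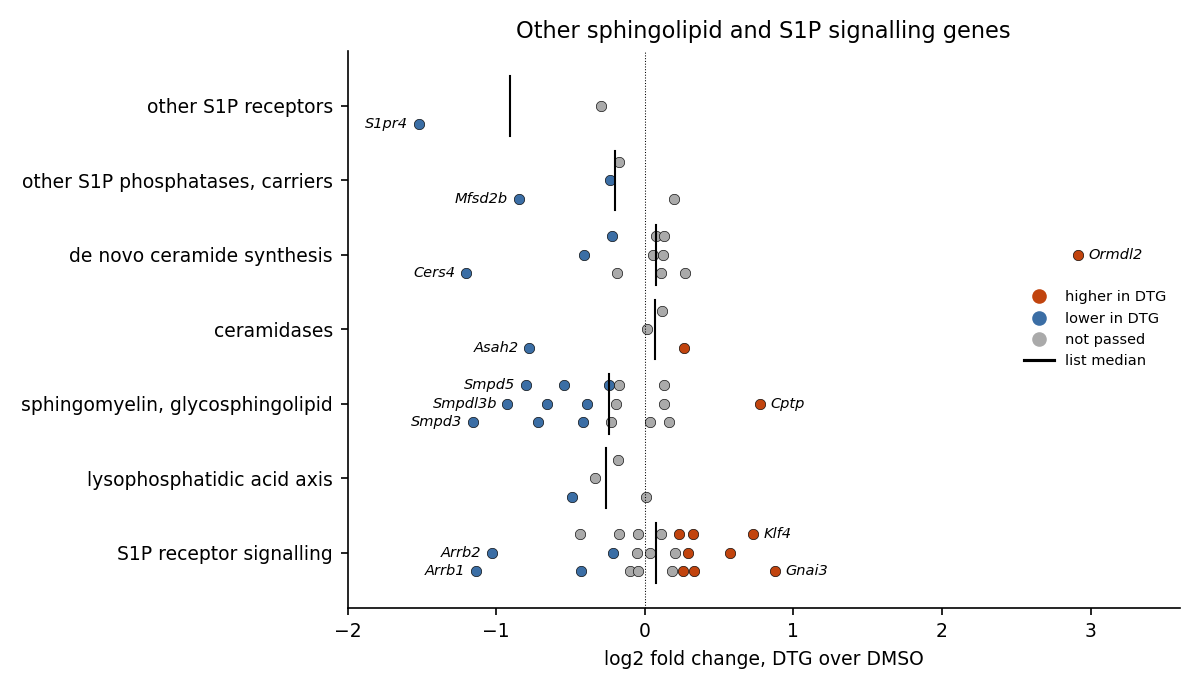
Log2 fold change (DTG over DMSO) of each tested gene in 7 lists around S1P, coloured by its call at an adjusted p under 0.05, with a vertical line at the list median. Ormdl2 stands at 2.91, and the 17 sphingomyelin and glycosphingolipid genes have 9 calls below 0 and 1 above. Of all genes tested 29.3% were called lower and 27.4% higher.

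Downstream of the receptors, 8 of 22 tested signalling genes were higher and 4 lower, with a median of 0.07 log2. These are 36.4% and 18.2%, where 27.4% and 29.3% of all genes tested were higher and lower. With library-size scaling 3 signalling genes were higher and 7 lower, and with upper-quartile factors 4 were higher. The arrestin genes Arrb1 and Arrb2, whose products desensitise and internalise receptors such as S1PR1, fell. Arrb1 was at 400 ± 31.0 CPM in DTG and 879 ± 12.9 CPM in DMSO (-1.14 ± 0.08 log2, adjusted p = 2.58e-06), and Arrb2 at 3.46 ± 0.41 CPM in DTG and 7.08 ± 0.44 CPM in DMSO (-1.03 ± 0.13 log2, adjusted p = 9.84e-05), with -1.21 in P4 alone and -0.82 in P5 alone for Arrb2. Gnai3, a Gi alpha subunit gene, rose to 291 ± 21.3 CPM in DTG, against 159 ± 16.0 CPM in DMSO (0.87 ± 0.09 log2, adjusted p = 3.10e-05), with 1.03 in P4 alone and 0.70 in P5 alone, while the more abundant Gnai2 differed by -0.17 log2 without passing. Stat3 rose by 0.57 ± 0.08 log2 (adjusted p = 0.000213). Klf4 rose by 0.73 ± 0.13 log2 (adjusted p = 0.000727), with 0.86 in P4 alone and 0.38 in P5 alone. Klf2, a flow-induced factor gene known to raise S1pr1 transcription in T cells, was at 146 ± 6.86 CPM in DTG and 126 ± 9.70 CPM in DMSO and did not pass (0.20 ± 0.08 log2, adjusted p = 0.0522). Klf2 passed with RLE factors (adjusted p = 0.0377), with DESeq2 (0.0283), without DTG replicate 1 (0.0183) and without DMSO replicate 2 (0.0422), and was at 0.03 log2 with library-size scaling. Tiam1 had 1 count in DTG and 0 in DMSO.

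Lysophosphatidic acid is also a substrate of the PLPP enzymes, and of its 4 tested receptor genes 1 was lower and 0 higher, with a median of -0.26 log2. These are 25% and 0%, where 29.3% and 27.4% of all genes tested were lower and higher. Lpar6 fell to 25.5 ± 1.72 CPM in DTG, against 35.8 ± 2.01 CPM in DMSO (-0.49 ± 0.09 log2, adjusted p = 0.000789). Lpar1, Lpar2 and Lpar4 differed by -0.18, -0.34 and 0.01 log2 without passing. Within the tags Lpar1 was at -0.58 in P4 and 0.20 in P5, Lpar2 at -0.47 and -0.08, and Lpar4 at 0.20 and -0.31. Lpar2 passed as lower with library-size scaling (adjusted p = 0.0218), upper-quartile factors (0.0425) and without DTG replicate 1 (0.0174). Enpp2, the gene of autotaxin, which makes lysophosphatidic acid, had 12 counts over the DTG libraries and 1 over the DMSO libraries, Lpar3 had 1 and 0, and Lpar5 had 2 and 5. Of the lipid carrier genes, Mfsd2a, which is linked to low vesicular transport at the blood-brain barrier, had 18 counts in DTG and 4 in DMSO, and Apom, which encodes an S1P-binding apolipoprotein, had 4 and 6. Over the 7 lists together, without the 8 genes of the opening, 11 of 64 tested genes were higher (17.2%, where 27.4% of all genes were) and 21 lower (32.8%, where 29.3% were).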

How the data were processed

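The deposited values are raw counts for each Ensembl gene, which the authors did not normalize. GRCm39 is the build named in the submitters' processing notes. For the aligner, counting tool, strand setting and annotation the sources used here give no entry. Libraries were made with a strand-preserving poly(A) kit, per the labels' protocols. Symbols came from GENCODE M21 (38606 of 43271 identifiers, 89.2%). Exon lengths and overlaps also came from it (GRCm38).

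Counts were analysed with edgeR 4.0.16 in R 4.3.3. Genes were filtered by filterByExpr, scaled by TMM and tested by the quasi-likelihood F-test with robust dispersion and group as the only term, DTG over DMSO. Benjamini-Hochberg adjustment ran over 14101 genes. The SE of a log2 fold change is its size over the root of F. The pipeline was tested on simulated data. Motif searches and figures used Python 3.11.15 and matplotlib 3.10.9.

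The genes and lists were chosen with earlier results of these data known. Named genes were the 8 genes, the 4 smallest p-values of each of 7 lists, Hspa5, Ddit3, Klf2, Klf4 and the 3 nearest profiles to S1pr1. Other genes were named after their values were seen. Alternatives were DESeq2 1.42.0, 3 other scalings, 2 other filters, a stricter threshold, a replicate block, the tag as a term, values within each tag and leaving out each library. Summing libraries that share a name number was added after seeing the data. Some items are not reported here.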

Additional observations from a re-analysis of the deposited data

How the results depend on the processing

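The 6 called genes kept their direction in all 15 alternatives with a test, and Plpp1 alone of them lost its call. Plpp1 ranged from -0.35 to -0.21 log2 with 1 library left out (the call was lost at -0.27, -0.25, -0.22 and -0.21), and Sphk1 from 0.62 to 1.19, passing at 1.19. Within the P5 libraries Sphk2 was at 0.90 and Spns2 at 1.07 log2. Scaling by library size moved the median gene by -0.17 log2. Of all calls, 30.7% were then higher, 38.2% with upper-quartile factors and 48.3% with TMM. Higher calls numbered 2536 with library-size scaling and 3860 with TMM, and in the 7 lists 5 with library-size scaling and 6 with upper-quartile factors, against 11. Ddit3, at 586 ± 160 CPM in DTG and 19.4 ± 2.34 CPM in DMSO, kept its call in all 15. The log2 ratio of Ddit3 was 5.08 in P4 alone and 4.40 in P5 alone. Of 494 checks on 33 other named genes, 447 kept direction and call, 21 lost a call, 13 gained one and 13 changed sign, all 13 in genes without a call. With library-size scaling these were Acer3 (-0.051), Asah1 (-0.16) and Lpar4 (-0.16), and with upper-quartile factors Asah1 (-0.078) and Lpar4 (-0.086). Asah1 was at -0.031 with libraries of the same name number summed and at -0.071 to 0.104 with 1 library left out. Lpar4 was at -0.05 with the tag as a term and at -0.053 to 0.163 with 1 library left out. The cause of these changes was not tested.

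For libraries with the same title number, deviations from group means correlated across genes at -0.28, 0.01 and -0.05. No DTG library correlated best with its own number. Libraries with the same title number always carry different tags, so these values cannot decide whether title numbers mark pairs. The 4 pairs with the same tag correlated at 0.105 to 0.196 and the others at 0.009 or lower. With the tag as a term Sphk2 was at 1.24 and Spns2 at 1.25 log2. With the replicate block 3543 genes were higher and 3728 lower, and the log2 changes of S1pr1, Sphk2, Spns2 and Plpp3 were 0.60, 1.42, 1.34 and -0.46, with no call changed among the 8 genes. The treatment by tag interaction called 0 genes with TMM and 0 with library-size scaling, 1351 of 14101 being under 0.05 before adjustment. At this depth S1pr3 could not be tested, and Sphk1 and S1pr4 rest on few counts.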
